A study of Mus musculus with 5 samples.

Results

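The genes described here encode proteins of the centromere and the kinetochore, together with the chromosomal passenger subunits that act on them. They were chosen by symbol, as 42 genes of 20224 in the table, and all 42 were found and passed the filter on low counts. Their lowest mean normalized count over the 5 libraries was 133, for *Cenpb*. The data are bulk RNA-seq counts of sympathetic neurons sorted from E14.5 mouse embryos of non-diabetic pregnancies, with 2 libraries of control cells (replicates 5 and 6) and 3 of *Hif1aCKO* cells (replicates 3, 4, and 5), each from 100 cells. Cells positive for both the Cre reporter tdTomato (*Ai14*) and the peripherin reporter *Prph-eGFP* were sorted from dissociated sympathetic ganglia. *Hif1aCKO* embryos were *Hif1a loxP/loxP; Isl1Cre; tdTomatoAi14* and sorted control embryos *Hif1a loxP/+; Isl1Cre; tdTomatoAi14*, on a mixed background. Elsewhere in the labels, controls are littermates without *Isl1-Cre*, but the tdTomato gate needs Cre. The groups therefore share the *Isl1-Cre* knock-in, which takes the place of 1 *Isl1* copy, and controls also carry 1 floxed *Hif1a* allele in the same cells. Cre from the *Isl1* locus is active in every lineage that expresses *Isl1*. Whether a library came from a single embryo or a pool is not given in the sources used here, and p-values measure the spread between these libraries.

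The centromere is the chromosomal site marked by the histone variant CENP-A, and the kinetochore is the protein assembly built on it that holds the spindle microtubules during cell division. The inner kinetochore, the constitutive centromere-associated network (CCAN), stays on the centromere through the cell cycle. The outer kinetochore (the Knl1, Mis12, and Ndc80 complexes) assembles for mitosis and is joined there by the Ska and RZZ complexes and the fibrous corona. Many of these genes are transcribed mainly in dividing cells, under E2F factors and the DREAM complex, which reads the cell cycle genes homology region. Sympathetic neuroblasts, unlike most neuronal precursors, go on dividing after they have started to express neuronal genes.

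Total counts were between 8254211 and 9700887 per library. The deleted gene, *Hif1a* (ENSMUSG00000021109), had normalized counts of 2086 in control replicate 5, 1584 in control replicate 6, and 2747, 1758, and 2135 across *Hif1aCKO* replicates 3, 4, and 5. Its log2 fold change was 0.27, and since counts are summed over all exons while only exon 2 is floxed, they do not show the deletion. The markers of sympathetic neurons were abundant in every library, with a summed level over 13 genes of 10033 to 13329 CPM (raw counts scaled to a common library total). Of the markers of Schwann cell precursors and glia, of which 5 of 8 were analysed, *Sox10* and *Sox2* had 8 raw counts in *Hif1aCKO* replicate 3 and 0 or 1 elsewhere, while *Fabp7* had 926 in *Hif1aCKO* replicate 3 and 0 to 9 elsewhere. The values below are counts divided by the effective library size (the total over genes kept times the TMM factor) and multiplied by its mean over libraries, and called normalized counts.

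Most of the centromere and kinetochore genes had higher normalized counts in *Hif1aCKO* neurons. The means of the passenger subunit *Incenp*, the corona proteins *Cenpe* and *Cenpf*, and the CENP-A chaperone *Hjurp* were 1.82-, 1.79-, 1.77-, and 1.78-fold those of control. Of the 42 genes, 38 had a fitted log2 fold change above 0 and 4 below, where 51.3% of all 15032 genes tested were above 0. Their median log2 fold change was 0.46, against 0.012 over all genes tested. It exceeded 0.3 for 30 of them (26.5% of all genes), and was below -0.3 for 0 (22.7% of all genes). In bulk libraries, a larger share of dividing cells and more of these transcripts in each dividing cell cannot be told apart.

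In edgeR's quasi-likelihood test 0 of the 42 genes were called (0% of all genes tested), where a call needed a p-value under 0.05 after Benjamini-Hochberg adjustment, a log2 fold change beyond ±0.3, and 50 or more normalized counts on average. An unadjusted p-value under 0.05 was reached by 17 higher and 0 lower genes (17 of 42, beside 7.67% of all genes), where 3.83% of all genes passed as higher and 3.85% as lower. Their adjusted p-values lay between 0.567 and 0.627 in edgeR's test. Without control replicate 6, 10 of the 42 genes were under an unadjusted 0.05 (3.83% of all genes in that fit), with the lone control library assumed to vary like the others. DESeq2 with the same thresholds called *Cenpe*, *Cenpf*, *Knl1*, *Hjurp*, and *Incenp*, all higher (5 of 42 genes, where 0.149% of all genes were called as higher), and limma-voom called 0. These genes also belong to the study's own list of changed genes, which was chosen on these libraries, so that they are not independent evidence of a direction. Without them the median of the remaining 37 genes was 0.41, with 33 of them above 0. For groups of 2 and 3 libraries, an exact permutation test of 1 gene cannot give a p-value below 0.1.

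Library by library, the genes' normalized counts were highest in *Hif1aCKO* replicate 4, which held the highest value for 23 of the 42, and lowest in control replicate 6, which held the lowest value for 23. On the log2 scale, the median deviation from a gene's mean over the 5 libraries came to -0.15 in control replicate 5, -0.38 in control replicate 6, and 0.047, 0.34, and 0.17 across *Hif1aCKO* replicates 3, 4, and 5. *Hif1aCKO* replicate 4 was the highest and control replicate 6 the lowest on this measure too. For 24 genes every *Hif1aCKO* library exceeded both control libraries (12.9% of all genes tested), for 1 gene, *Zwint*, all lay below (12.9%), and for 17 the groups overlapped. *Hif1aCKO* replicate 3 lay closest to the controls and was above control replicate 5 for 30 of the 42 genes, while *Hif1aCKO* replicate 4 was above it for 37. The controls also differed from each other, with control replicate 5 above control replicate 6 for 28 of the 42. Leaving out 1 library moved the log2 fold change by over 1.5 times in at least 1 fit for 25 of the 42 genes, and for 2 of the 17 with an unadjusted p-value under 0.05 (*Cenpq* and *Mis12*).

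**Figure D1:**
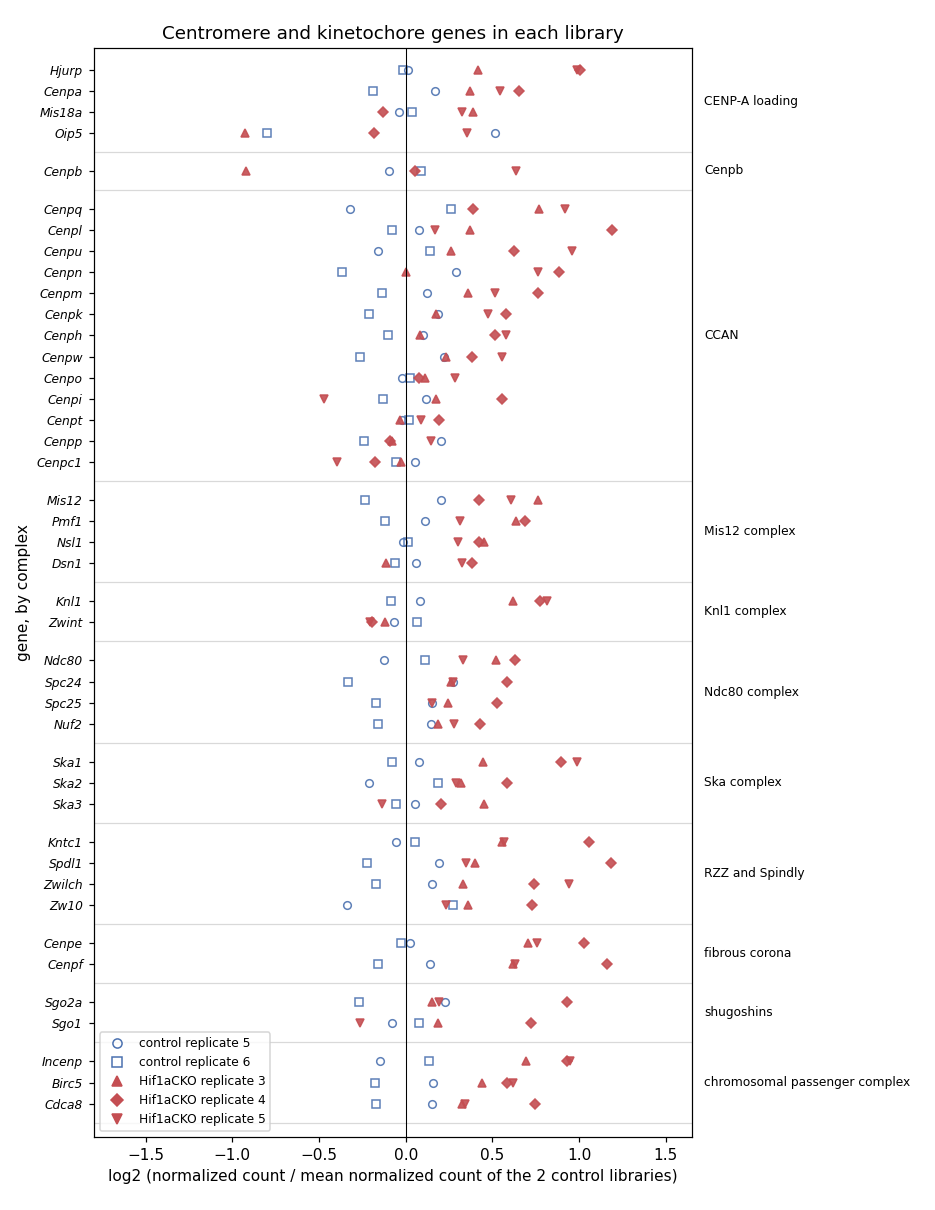
Each row is a gene, grouped by complex, and each point a library (open blue, control replicates 5 and 6; filled red, *Hif1aCKO* replicates 3, 4, and 5), with the log2 ratio of its normalized count to the mean of the 2 control libraries on the x axis. The red points lie to the right of both blue points in 24 of the 42 rows, and to the left of both only for *Zwint*.

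Short letter matches were counted in the promoters, which the choice of genes did not use. RefSeq promoters on GRCm38.p6, from 250 bases before to 50 after the annotated start, were matched by symbol for 37 of the 42 genes. The other 5 are *Incenp*, *Nsl1*, *Ska1*, *Spc24*, and *Zwilch*. The letters TTTGAA, the core of the cell cycle genes homology region, were found in 16 of the 37 (43.2%), against 20.2% of 27025 genes in the promoter table. In 13 of the 37 they began within 50 bases of the start, against 5.72% of all genes, a distance chosen after the matches were seen. CCAAT, the letters bound by NF-Y, was found in 25 of the 37 (67.6%, against 41.1% of all genes). E2F-type letters (any of 4 runs, either TTGGCGC or else TTCCCGC, and likewise TTGCCGC or else TTCGCGC) were found in 14 of the 37 (37.8%, against 10.9%). Both strands were searched for each, and the matches are letters in a window that do not show binding.

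Stretches from 190 bases before to 30 after the start are shown for 4 of the genes that hold both TTTGAA and CCAAT and were higher at an unadjusted p-value under 0.05, and for *Zwint*, which lay lower. They read 5′ to 3′ on the strand of the gene, with TTTGAA and CCAAT (or its reverse complement ATTGG) in capitals.
*Cenpa* promoter (chr5:30666696-30666915, plus strand): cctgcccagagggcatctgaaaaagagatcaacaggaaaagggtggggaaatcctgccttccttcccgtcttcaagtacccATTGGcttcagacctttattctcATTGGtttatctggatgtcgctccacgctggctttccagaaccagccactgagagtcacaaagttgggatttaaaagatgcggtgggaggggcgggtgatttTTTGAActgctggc
*Hjurp* promoter (chr1:88277550-88277769, minus strand): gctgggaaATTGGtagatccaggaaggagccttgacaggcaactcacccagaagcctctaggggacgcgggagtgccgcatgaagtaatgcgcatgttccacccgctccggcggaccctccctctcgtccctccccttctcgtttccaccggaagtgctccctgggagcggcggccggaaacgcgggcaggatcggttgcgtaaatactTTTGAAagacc
*Cenpf* promoter (chr1:189688057-189688276, minus strand): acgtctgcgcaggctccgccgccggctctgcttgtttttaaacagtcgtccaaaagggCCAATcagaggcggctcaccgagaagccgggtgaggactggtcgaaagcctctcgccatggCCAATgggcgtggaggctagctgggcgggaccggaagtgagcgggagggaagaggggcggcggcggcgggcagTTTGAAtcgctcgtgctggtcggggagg
*Cdca8* promoter (chr4:124936888-124937107, minus strand): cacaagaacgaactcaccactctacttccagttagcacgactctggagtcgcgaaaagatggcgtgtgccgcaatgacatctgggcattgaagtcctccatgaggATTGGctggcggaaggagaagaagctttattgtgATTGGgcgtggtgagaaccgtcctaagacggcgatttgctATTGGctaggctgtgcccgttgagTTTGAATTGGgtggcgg
*Zwint* promoter (chr10:72654656-72654875, plus strand): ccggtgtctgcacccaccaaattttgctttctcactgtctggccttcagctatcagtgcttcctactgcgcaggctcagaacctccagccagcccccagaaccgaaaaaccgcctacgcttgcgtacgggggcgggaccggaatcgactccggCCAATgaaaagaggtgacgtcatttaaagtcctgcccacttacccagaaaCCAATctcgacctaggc

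Counted from the RefSeq start as base 1, TTTGAA began at base 17 in *Cenpa*, 20 in *Hjurp*, 3 in *Cenpf*, and 14 in *Cdca8*, in the sense direction in each. *Kntc1* and *Pmf1* met the same terms but are not shown, and did not share this placement. There TTTGAA began at base -8 in the antisense direction in *Kntc1* and at base -135 in the sense direction in *Pmf1*. The common placement in the stretches shown therefore depends on which were printed. In *Cdca8* it runs into an ATTGG, and both share base 19. The *Zwint* window holds CCAAT at bases -37 and 14 and no TTTGAA. Presence of TTTGAA did not follow the direction gene by gene. *Cenpe* (log2 fold change 0.84) also had no TTTGAA in its window, and *Oip5* (-0.16) had one. Of the 16 genes with TTTGAA, 11 were higher without overlap, and of the 21 without it, 9 were. Across the genes with a promoter, the median log2 fold change was 0.54 for the 16 with TTTGAA and 0.30 for the 21 without, 0.53 for the 25 with CCAAT and 0.21 for the 12 without, and 0.41 for the 14 with E2F-type letters and 0.50 for the 23 without. These differences were not tested.

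CENP-A and its chaperone were higher in all *Hif1aCKO* libraries, whereas the groups overlapped for both genes of the Mis18 complex. The 4 genes had a median log2 fold change of 0.37, or 0.68 without control replicate 5. *Cenpa* (ENSMUSG00000029177, chromosome 5, 30666777 to 30674830 of GRCm38, as are all positions here) encodes the histone H3 variant that marks the centromere. Its normalized counts were 3158 in control replicate 5, 2468 in control replicate 6, and 3643, 4424, and 4108 across *Hif1aCKO* replicates 3, 4, and 5, and every *Hif1aCKO* library lay above both controls. The means were 2813 ± 488 for control (SD, n = 2) and 4058 ± 392 for *Hif1aCKO* (SD, n = 3), with a log2 fold change of 0.53 (SE 0.16) and adjusted p = 0.598 by edgeR's quasi-likelihood fit. *Hjurp* (ENSMUSG00000044783, chromosome 1, 88262471 to 88277633) encodes the chaperone that deposits new CENP-A after mitosis, and had normalized counts of 1448 and 1422 in the control libraries and 1915, 2878, and 2849 in the *Hif1aCKO* libraries. The control libraries were nearly equal, *Hif1aCKO* replicate 3 was the lowest of its group, and the log2 fold change was 0.83 (SE 0.20). *Mis18a* and *Oip5* (Mis18β) form the complex that licenses this deposition. *Mis18a* (580.2 and 609 in the control libraries and 778, 544, and 745 in the *Hif1aCKO* libraries) and *Oip5* (302 and 122 in the control libraries and 112, 187, and 270.5 in the *Hif1aCKO* libraries) had overlapping groups and log2 fold changes of 0.21 and -0.16. *Oip5* shares 9.67% of its exonic bases with *Nusap1* on the opposite strand, and its fold change ran from -0.68 to 0.64 over the fits without 1 library each.

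Among the 13 CCAN genes, 11 were above 0 and 2 below, with a median log2 fold change of 0.41. In edgeR's test 3 were higher at an unadjusted p-value under 0.05, beside 3.83% of all genes tested. Without control replicate 6 the median was 0.23. The 3 genes were *Cenpq* and *Cenpu*, 2 subunits of the complex that also holds *Cenpo* and *Cenpp*, and *Cenpm*, a partner of *Cenph*, *Cenpi*, and *Cenpk*. Normalized counts of *Cenpq* were 308 and 462 in the control libraries and 656, 504, and 728 in the *Hif1aCKO* libraries, a log2 fold change of 0.71 (SE 0.25), or 0.44 without control replicate 5. *Cenpu* had 289 and 355 in the control libraries and 386, 495, and 626 in the *Hif1aCKO* libraries, with a log2 fold change of 0.64 (SE 0.26), and shares 26.7% of its exonic bases with *Primpol* on the opposite strand, so that reads there cannot be assigned with certainty. *Cenpm* had 512 and 428 in the control libraries and 603, 798, and 671 in the *Hif1aCKO* libraries, a log2 fold change of 0.56 (SE 0.20). Of the 13 genes, 6 were higher without overlap, these 3 and *Cenpl*, *Cenpo*, and *Cenpw*, beside 12.9% of all genes tested.

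The other members of both subcomplexes ranged widely. *Cenpo* and *Cenpp* had log2 fold changes of 0.16 and -0.0024, the latter 0.032 with upper-quartile scaling, and share 22.5% and 12.6% of their exonic bases with other genes. *Cenph*, *Cenpk*, and *Cenpi* had 0.41, 0.42, and 0.15. *Cenpk* came to 0.23 without control replicate 6, and *Cenpi* turned to -0.11 without *Hif1aCKO* replicate 4. *Cenpl* and *Cenpn*, which form a pair that contacts the CENP-A nucleosome, had 0.65 and 0.60 with standard errors of 0.31 and 0.32. *Cenpl* came to 0.27 without *Hif1aCKO* replicate 4, and *Cenpn* ran from 0.30 without control replicate 6 to 0.96 without control replicate 5. The histone-fold partners *Cenpt* and *Cenpw* had 0.085 and 0.40, and *Cenpw* ran from 0.17 without control replicate 6 to 0.66 without control replicate 5.

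*Cenpc1* (ENSMUSG00000029253, chromosome 5, 86012024 to 86065583), the scaffold that links the CENP-A nucleosome to the outer kinetochore, had the highest mean count of the CCAN genes. It was listed at 1479 in control replicate 5, 1367 in control replicate 6, and 1394, 1258, and 1080.1 across *Hif1aCKO* replicates 3, 4, and 5. The groups overlapped, with *Hif1aCKO* replicate 5 the lowest of all libraries, and the log2 fold change of -0.19 (SE 0.16) was the lowest of all 42 genes. *Cenpt*, the next most counted CCAN gene, had 1163 and 1196 in the control libraries and 1153, 1349, and 1252 in the *Hif1aCKO* libraries, also overlapping. *Cenpb*, which binds a motif in centromeric satellite DNA, had 122 and 138 in the control libraries and 68.6, 135, and 202 in the *Hif1aCKO* libraries. Its groups overlapped, *Hif1aCKO* replicates 3 and 5 were the lowest and highest of all libraries, and its log2 fold change of 0.058, or -0.057 with limma-voom, ran from -0.35 to 0.37 with each library left out in turn.

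In the Mis12 complex, which joins the inner kinetochore to the microtubule-binding proteins, all 4 genes were above 0, with a median log2 fold change of 0.47. *Mis12* had normalized counts of 657 and 484 in the control libraries and 969, 766, and 869.9 in the *Hif1aCKO* libraries, with all *Hif1aCKO* libraries above both controls and replicate 3 the highest. Its log2 fold change was 0.61 (SE 0.20), or 0.40 without control replicate 6, and 7.69% of its exonic bases are shared with *Derl2* on the opposite strand. *Pmf1* had 753 and 644 in the control libraries and 1086, 1126, and 866 in the *Hif1aCKO* libraries, again without overlap, and a log2 fold change of 0.56 (SE 0.19). *Nsl1* had 0.39 with groups that did not overlap and *Dsn1* 0.22 with groups that did.

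The 2 genes of the Knl1 complex lay on opposite sides. *Knl1* (ENSMUSG00000027326, chromosome 2, 119047119 to 119105501) encodes the scaffold that recruits the checkpoint kinase Bub1. Its normalized counts were 829 in control replicate 5, 737 in control replicate 6, and 1201, 1339, and 1378 across *Hif1aCKO* replicates 3, 4, and 5. The groups were well apart, at 783 ± 64.9 for control (SD, n = 2) and 1306 ± 93.0 for *Hif1aCKO* (SD, n = 3), and the log2 fold change was 0.74 (SE 0.16), with adjusted p = 0.586 by edgeR's quasi-likelihood fit and 0.0121 by DESeq2.

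*Zwint* (ENSMUSG00000019923, chromosome 10, 72654845 to 72674964) encodes the partner of Knl1 that helps to bring the RZZ complex to the kinetochore, and is known to be abundant in brain, where the protein also binds SNAP-25. It had the highest counts of all 42 genes, 5903 in control replicate 5, 6475 in control replicate 6, and 5687, 5399, and 5368 across *Hif1aCKO* replicates 3, 4, and 5. All *Hif1aCKO* libraries lay below both controls, by a smaller margin than that of *Knl1* in the other direction. The means were 6189 ± 405 for control (SD, n = 2) and 5485 ± 176 for *Hif1aCKO* (SD, n = 3), and the log2 fold change was -0.17 (SE 0.11), with unadjusted p = 0.147 by edgeR's quasi-likelihood fit. Over the fits without 1 library each it ran from -0.24 to -0.11. Of the summed counts of all 42 genes, *Zwint* made up 14.2% and 17.2% in the control libraries and 11.8%, 9.28%, and 10.6% in the *Hif1aCKO* libraries.

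**Figure D2:**
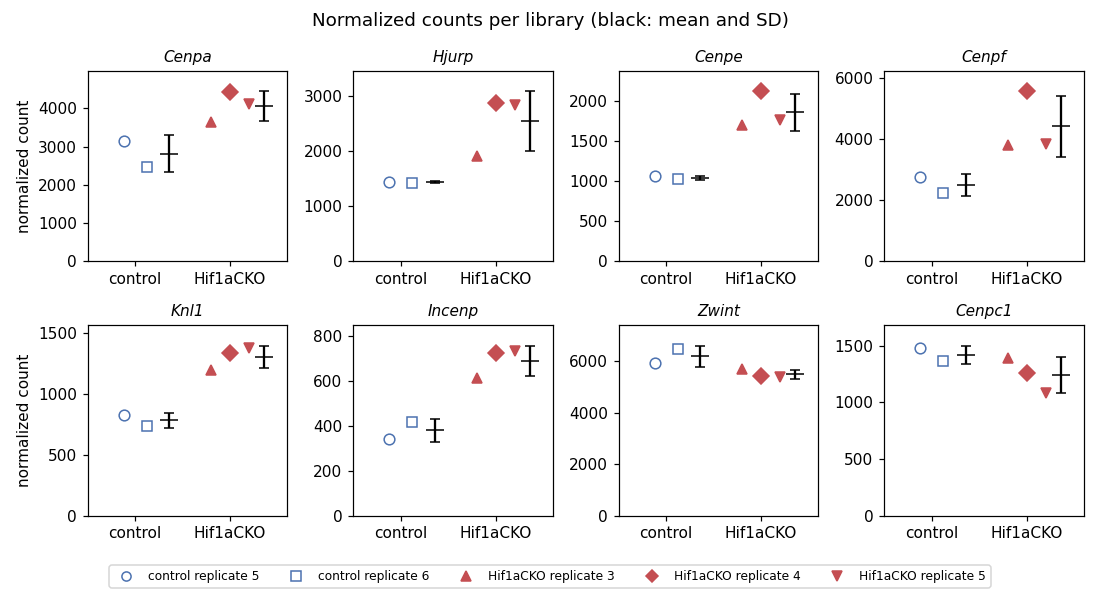
Normalized counts per library (y axis, from 0) of 8 of the genes, with control and *Hif1aCKO* libraries side by side and the mean and SD in black beside each group. *Cenpa*, *Hjurp*, *Cenpe*, *Cenpf*, *Knl1*, and *Incenp* were higher in all 3 *Hif1aCKO* libraries, *Zwint* was lower in all 3, and the groups of *Cenpc1* overlapped.

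All 4 genes of the Ndc80 complex, the rod that holds the microtubule end, were above 0, with a median log2 fold change of 0.35, or 0.15 without control replicate 6. *Ndc80* had normalized counts of 799 and 940.5 in the control libraries and 1247, 1347, and 1095 in the *Hif1aCKO* libraries, without overlap, and a log2 fold change of 0.50 (SE 0.17). Its partner *Nuf2* had 1064 and 863 in the control libraries and 1097, 1296, and 1167 in the *Hif1aCKO* libraries. There the gap between the groups was narrow and the log2 fold change was 0.30 (SE 0.17), or 0.15 without control replicate 6. *Spc25*, which with *Spc24* forms the pair that anchors the rod to the inner kinetochore, was the most counted gene of the complex, with 2673 and 2134 in the control libraries and 2842, 3462, and 2668 in the *Hif1aCKO* libraries. Its groups overlapped, since *Hif1aCKO* replicate 5 lay just below control replicate 5, and the log2 fold changes of *Spc25* and *Spc24* were 0.32 and 0.38. Without control replicate 6 they were 0.16 and 0.10, and without control replicate 5 they were 0.48 and 0.71.

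The Ska complex, which keeps kinetochores on shortening microtubules, had a median log2 fold change of 0.40 over 3 genes, with 0.24 without control replicate 5 and 0.61 without control replicate 6. *Ska1* had normalized counts of 369 and 330.2 in the control libraries and 475, 649, and 693 in the *Hif1aCKO* libraries, without overlap, and a log2 fold change of 0.79 (SE 0.23). *Ska2* was the most counted gene of the complex, with 1161 and 1533 in the control libraries and 1682, 2022, and 1645 in the *Hif1aCKO* libraries, also without overlap. Its log2 fold change was 0.40 (SE 0.18), from 0.22 to 0.61 without the same libraries, and 10.1% of its exonic bases are shared with an antisense gene. *Ska3* had 0.19 with overlapping groups.

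The RZZ complex and its adaptor Spindly recruit dynein and checkpoint proteins to unattached kinetochores, and their 4 genes had a median log2 fold change of 0.69, all above 0. *Kntc1* (Rod) had normalized counts of 357 and 387 in the control libraries and 546, 774, and 551 in the *Hif1aCKO* libraries, with *Hif1aCKO* replicate 4 the highest. Its log2 fold change was 0.74 (SE 0.22). *Zwilch* had 303 and 242 in the control libraries and 342, 454, and 523 in the *Hif1aCKO* libraries, a log2 fold change of 0.69 (SE 0.26), and neither gene had overlapping groups. *Spdl1* (Spindly) had 0.70, with a standard error of 0.31 and an unadjusted p-value of 0.0523 in edgeR's test, and came to 0.37 without *Hif1aCKO* replicate 4. *Zw10*, the most counted of the 4, had 365 and 558 in the control libraries and 591, 763, and 541 in the *Hif1aCKO* libraries, with control replicate 6 above *Hif1aCKO* replicate 5, and a log2 fold change of 0.45 that ran from 0.18 without control replicate 5 to 0.79 without control replicate 6. *Zw10* and *Spdl1* products also act with dynein outside mitosis.

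Both genes of the fibrous corona, the outermost layer of the kinetochore, were higher in *Hif1aCKO* neurons. *Cenpe* (ENSMUSG00000045328, chromosome 3, 135212537 to 135273611), a kinesin that moves chromosomes to the spindle equator, had normalized counts of 1056 in control replicate 5, 1018 in control replicate 6, and 1693, 2116, and 1754 across *Hif1aCKO* replicates 3, 4, and 5. Its control libraries nearly coincided, all *Hif1aCKO* libraries lay at least 60.3% above them, and it had the smallest p-value of the 42 genes (log2 fold change 0.84 (SE 0.16), adjusted p = 0.567 in edgeR's quasi-likelihood test). *Cenpf* (ENSMUSG00000026605, chromosome 1, 189640606 to 189688086), a large protein that binds dynein regulators and is present from late S phase to mitosis, had 2748 and 2232 in the control libraries and 3816, 5564, and 3853 in the *Hif1aCKO* libraries. *Hif1aCKO* replicate 4 stood above the other 2, and the means were 2489.7 ± 365 for control (SD, n = 2) and 4411 ± 999 for *Hif1aCKO* (SD, n = 3), a log2 fold change of 0.83 (SE 0.20).

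The shugoshins, which protect centromeric cohesin, had less certain differences. *Sgo2a* had normalized counts of 1072 and 759.6 in the control libraries and 1016, 1746, and 1048 in the *Hif1aCKO* libraries, a log2 fold change of 0.47 (SE 0.28) and overlapping groups. *Hif1aCKO* replicate 4 was the highest, and without it the log2 fold change was 0.17. It shares 35.0% of its exonic bases with *Kctd18* on the opposite strand. *Sgo1* had 417 and 465 in the control libraries and 502, 726, and 368 in the *Hif1aCKO* libraries, with overlapping groups, a log2 fold change of 0.27, and -0.021 without the same library.

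The chromosomal passenger complex places Aurora B kinase at the centromere to correct faulty attachments. Its 3 subunits were all higher in *Hif1aCKO* neurons without overlap, beside 12.9% of all genes tested. All 3 had an unadjusted p-value under 0.05 in edgeR's test, where 3.83% of all genes passed as higher. *Incenp* (ENSMUSG00000024660, chromosome 19, 9872296 to 9899551), the scaffold, had normalized counts of 343 in control replicate 5, 416 in control replicate 6, and 613, 724, and 733 across *Hif1aCKO* replicates 3, 4, and 5. Its log2 fold change of 0.86 (SE 0.20) was the highest of the 42 genes, with adjusted p = 0.586 by edgeR's quasi-likelihood fit and 0.0374 by DESeq2. *Birc5* (Survivin) had 1945 and 1538 in the control libraries and 2362, 2614, and 2678 in the *Hif1aCKO* libraries, a log2 fold change of 0.55 (SE 0.16). *Cdca8* (Borealin) had 2009 and 1607 in the control libraries and 2262, 3032, and 2290.5 in the *Hif1aCKO* libraries, a log2 fold change of 0.48 (SE 0.18), with *Hif1aCKO* replicate 4 well above the other 2. *Aurkb*, the kinase of the complex, had a log2 fold change of 0.32 with overlapping groups (unadjusted p = 0.193 in edgeR's test).

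**Figure D3:**
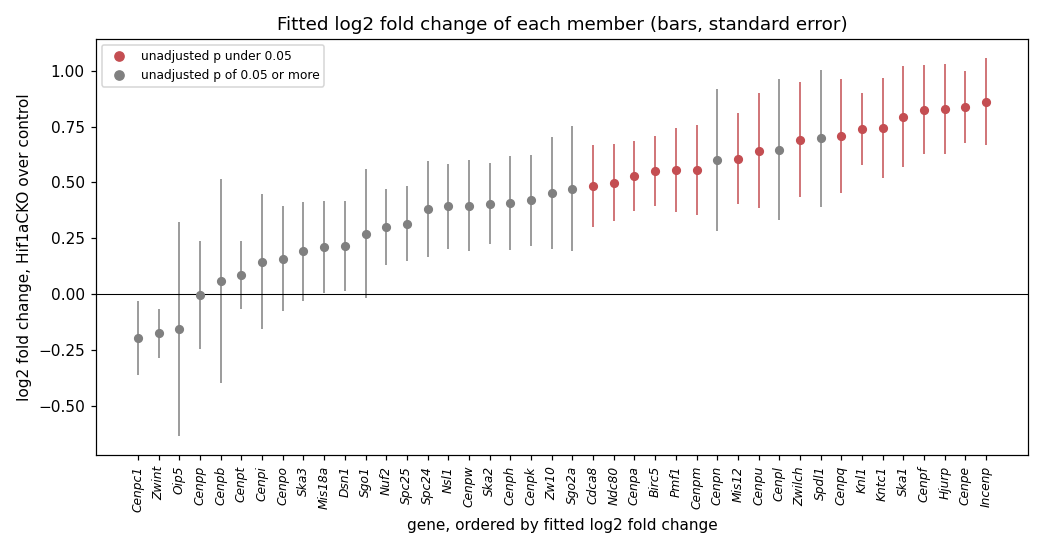
Fitted log2 fold changes (y axis, *Hif1aCKO* over control) of the 42 genes in ascending order, with bars for the standard error and the 17 genes at an unadjusted p-value under 0.05 in red. The values run from -0.19 for *Cenpc1* to 0.86 for *Incenp*, and all red points are above 0.

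Per kb of annotated exon, the mean normalized count over the 5 libraries ran from 27.3 for *Cenpb* to 1300.5 for *Zwint*, followed downwards from *Zwint* by *Spc25* (864), *Birc5* (655), *Cenpa* (608), and *Spc24* (558). Within the Ndc80 complex, whose 4 subunits join in equal numbers, *Spc25* and *Spc24* were above *Nuf2* (173) and *Ndc80* (167) on this scale. Within the Knl1 complex, *Zwint* per kb stood far above *Knl1* (128). Exon length was the union over all annotated transcripts, 5860 bp for *Cenpa* and 15433 bp for *Cenpf*, which can exceed the transcript in use, so that these levels are approximate. Genes with log2 fold changes above 0.5 were found at low levels, such as *Kntc1* (65.5 per kb), and at high levels, such as *Birc5*.

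**Figure D4:**
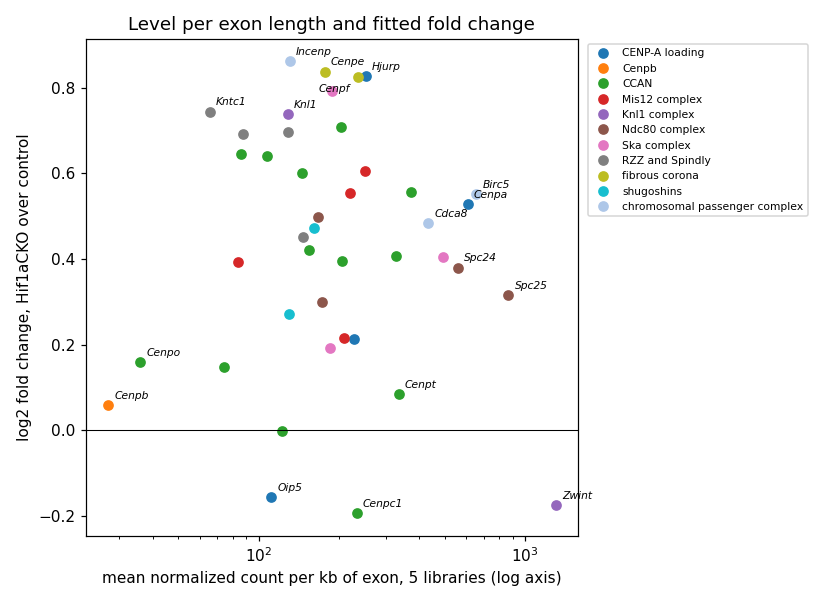
Each point is 1 of the 42 genes, coloured by complex, with its mean normalized count per kb of exon over the 5 libraries on a log x axis and its fitted log2 fold change on the y axis. *Zwint* stands alone at the right, below 0, at 1300.5 normalized counts per kb, and *Cenpb* lies furthest left, at 27.3.

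The genes were split by the G2/M marker list in common use for scoring cell cycle phase. The 8 of them on it (*Cenpa*, *Cenpe*, *Cenpf*, *Ndc80*, *Nuf2*, *Hjurp*, *Birc5*, and *Cdca8*) were all higher without overlap, with a median of 0.54 on the log2 scale. The other 34 had a median of 0.41, with 30 above 0 and 16 higher without overlap. Over all genes tested, 51.3% were above 0 and 12.9% higher without overlap. The difference between these medians was not tested.

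Of 26 other genes that work at the kinetochore, 22 were above 0 and 4 below, with a median log2 fold change of 0.34. An unadjusted p-value under 0.05 was reached by 7 higher and 0 lower genes, beside the same 3.83% and 3.85% of all genes. *Plk1*, the mitotic kinase that primes CENP-A loading, had the largest log2 fold change among them, 0.93, followed by *Nek2* (0.83), whose raw counts ran from 129 to 924 across libraries and whose groups overlapped. By qRT-PCR of dissected sympathetic chains, not sorted cells, the paper reports that *Hif1a* deletion left *Plk1* unaffected and that maternal diabetes raised it. The checkpoint genes *Bub1*, *Bub1b*, and *Ttk* had 0.69, 0.72, and 0.47. Those below 0 were *Bub3* (-0.13), *Ckap5* (-0.082), *Itgb3bp* (-0.11), which encodes a further CCAN subunit, and the phosphatase subunit *Ppp2r5c* (-0.15), the only one of the 26 that was lower without overlap.

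Most genes of the cell cycle lists also had log2 fold changes above 0. A list of 24 further G2/M genes, such as *Mki67* (0.78) and *Top2a* (0.25), had 24 above 0 and a median of 0.54, whereas 18 S phase genes had 14 above 0 and a median of 0.17, with *Pcna* at -0.022. Mitotic genes counted above with the other kinetochore genes, such as *Aurkb*, *Bub1*, *Ckap5*, *Nek2*, and *Ttk*, are not among the 24. Of the 24, the study names *Mki67*, *Ccnb1*, and *Kif23* as upregulated in these libraries, so they are not independent evidence of a direction. Summed over the 42 genes, normalized counts came to 41528 in control replicate 5, 37749 in control replicate 6, and 48326, 58196, and 50870 across *Hif1aCKO* replicates 3, 4, and 5. The mean of this sum in *Hif1aCKO* neurons was 1.32 times that in control, and for the 24 G2/M genes 1.45 times. The ratio of the first sum to the second was 0.993 and 1.09 in the control libraries and 0.901, 0.927, and 1.03 in the *Hif1aCKO* libraries, so that the groups overlapped. Without *Zwint* it was 0.852 and 0.901, and 0.795, 0.841, and 0.918.

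**Figure D5:**
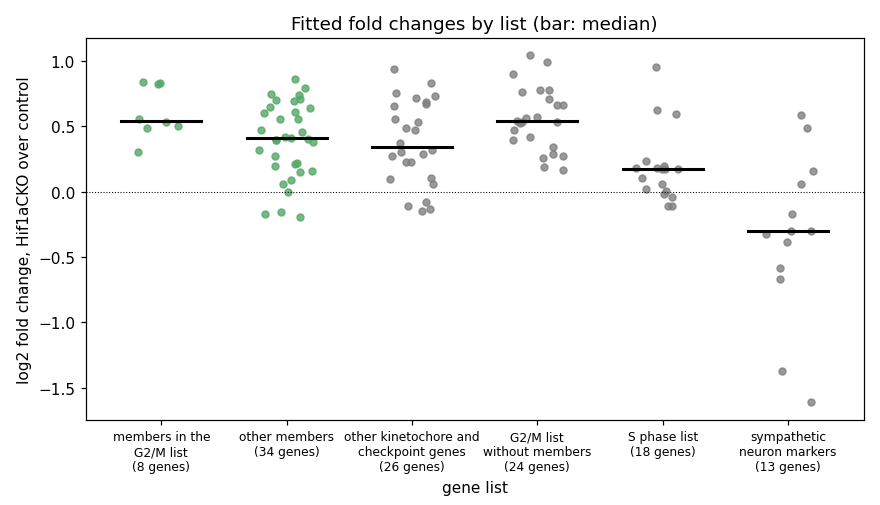
Fitted log2 fold changes (y axis, *Hif1aCKO* over control) of the centromere and kinetochore genes (green, split by the G2/M list) beside 4 other gene lists (grey), 1 point per gene, with a bar at the median. The medians are 0.54 and 0.41 for the green points and 0.34 for other kinetochore and checkpoint genes. They are 0.54 for the list of 24 further G2/M genes, 0.17 for the S phase list, and -0.30 for sympathetic neuron markers.

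Markers of cell type differed between the groups as well. Of 13 sympathetic neuron markers, 4 were above 0 and 9 below, with a median log2 fold change of -0.30. *Th* (-1.37), *Isl1* (-0.67), and *Tubb3* (-0.39) were among 7 that were lower at an unadjusted p-value under 0.05, and *Hand2* (0.59) was higher. Their summed level was 11208 and 13329 CPM in control replicates 5 and 6 and 10033 to 10059 in the *Hif1aCKO* libraries. Of 4 chromaffin cell markers, *Chgb* (-1.69) and *Pnmt* (-1.91, at 3 to 55 raw counts) were lower without overlap. *Chga* (0.0077) had overlapping groups, and *Penk* (0 to 57 raw counts) failed the filter on low counts. The chromaffin list summed to between 352 and 1252 CPM. The glial list summed to 130.2 CPM in *Hif1aCKO* replicate 3 and to between 3.4 and 6.34 in the other libraries, with *Erbb3* at 50 raw counts in that library and 0 to 2 elsewhere. Without *Hif1aCKO* replicate 3 the median log2 fold change of the 42 genes was 0.52, with 40 above 0. The markers analysed of mesenchyme (4 of 7), endothelium (2 of 5), erythroid cells (1 of 6), and sensory neurons (5 of 5) summed to at most 2.82, 4.23, 3.65, and 8.59 CPM in any library. Dissociation response genes (9 of 10) summed to 311 and 205 CPM in control replicates 5 and 6 and 219 to 250.3 in the *Hif1aCKO* libraries. The part of the neuronal, chromaffin, and dissociation genes in the values of the centromere and kinetochore genes was not tested.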

How the data were processed

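RNA of 100 sorted sympathetic neurons per library was sequenced from 2 control and 3 *Hif1aCKO* samples. The authors trimmed reads with cutadapt 1.18, filtered them with Bowtie 1.2.2, aligned them to GRCm38 with STAR 2.7.0c, and deposited raw counts of uniquely mapped reads per gene, with totals of 8254211 to 9700887 per library. Counting did not state use of strand, so overlapping genes on opposite strands cannot be separated.

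All 5 libraries entered 1 fit with edgeR 4.0.16 (TMM scaling, filterByExpr, quasi-likelihood test) on the counts as deposited, and p-values were adjusted by Benjamini-Hochberg over the 15032 genes kept. Calls used the study's thresholds of an adjusted p-value below 0.05, a log2 fold change beyond ±0.3, and 50 or more normalized counts on average. Scripts were tested on simulated data. Alternatives were RLE and upper-quartile scaling, DESeq2 1.42.0, limma-voom 3.58.1, no filter on low counts, and leaving out each library in turn. No pair of libraries agreed within sampling noise (chi-square per degree of freedom 14.61 to 37.79).

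The 42 genes and all lists were chosen with earlier results of these data known. Values per library are given for genes at an unadjusted p-value under 0.05, for the most counted gene of each complex, and for *Cenpa*. Those of *Mis18a*, *Oip5*, *Cenpt*, *Nuf2*, and *Sgo1* were added after they were seen. Positions and exon lengths come from GENCODE on GRCm38, and promoters from RefSeq on GRCm38.p6.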

Additional observations from a re-analysis of the deposited data

How the results depend on the processing

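Over 10 alternative fits, 37 of the 42 genes had a log2 fold change of the same sign in each. By a set rule, 84 of 90 summary values and 106 of 110 medians of the complexes stayed close to those reported. Counts had to lie within 1.5 times, and medians had to move by less than the larger within-group SD of their per-library values. That SD was 0.78 for *Cenpb*, 0.45 for the shugoshins, and 0.030 for the Knl1 complex, so the rule was loose for some. The median of the shugoshins fell from 0.37 to 0.075 without *Hif1aCKO* replicate 4 and still counted as close. Medians of complexes that moved beyond the SD were 0.32 for the Knl1 complex with upper-quartile scaling and 0.68 for CENP-A loading without control replicate 5. The others were 0.23 for the CCAN and 0.61 for the Ska complex, both without control replicate 6. With DESeq2, 60 genes of the whole table and 5 of the 42 were called, where edgeR called 0 of both. Without control replicate 5, 4 genes of the whole table were called (0 of the 42), and the median log2 fold change was 0.63 over the 42 genes and 0.72 over the 8 on the G2/M list. Without control replicate 6, 10 of the 42 genes had an unadjusted p-value under 0.05. Over the 5 fits that left out a library each, the median ran from 0.35 to 0.63 over the 42 genes, from 0.50 to 0.72 over the 8, and from 0.30 to 0.50 over the other 34. In those fits 37 to 40 of the 42 genes were above 0, 25 to 31 were higher without overlap, 10 to 20 had an unadjusted p-value under 0.05, 0 to 0 were called, and 0 to 4 of all genes were called. With fewer libraries the groups overlap less often by construction, and 18.7% to 25.2% of all genes were higher without overlap in those fits, while 3.83% to 12.1% had an unadjusted p-value under 0.05. The sign turned for *Cenpp*, at 0.032 with upper-quartile scaling, 0.022 with limma-voom, and -0.21 to 0.23 over the fits that left out a library. It turned for *Cenpb* with limma-voom (-0.057) and over those fits (-0.35 to 0.37), and over those fits for *Oip5* (-0.68 to 0.64), *Cenpi* (-0.11 to 0.38), and *Sgo1* (-0.021 to 0.48). The cause was not tested. No paired analysis was possible because the groups share only the replicate number 5. The limits are 2 control libraries, 100 cells per library, and a biological coefficient of variation of 0.384. Scaling moved the median log2 fold change of all genes by less than 0.1.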
